A study of Mus musculus with 8 samples.

Results

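Ribosomal proteins build the 2 kinds of ribosome of an animal cell, and their genes were read here in whole mouse brain. Members were the rows whose gene symbol starts with Rpl or Rps and a digit, with Rplp and a digit from 0 to 2, or with Mrpl or Mrps and a digit, together with Rpsa. Pseudogene symbols ending in -ps and the S6 kinase genes were left out. The rule found 159 of the 17613 genes in the table, 83 cytosolic and 76 mitochondrial. The cytosolic members comprised 46 rows named for the large subunit, 31 for the small subunit, 5 paralog copies (Rpl22l1, Rpl36al, Rpl7l1, Rps27l and Rps4y2) and Rps19bp1. The rule takes Rps19bp1 by its name, although it encodes a protein that binds RPS19 and is no part of the ribosome. The 46 include a row named Rpl24 whose identifier is that of Zbtb11 in GENCODE M21. By name, 47 mitochondrial members belong to the large and 29 to the small subunit. Mrps30 and Mrps18a are named for the small subunit, but structures place both proteins in the large one. The subunit sets below follow the names.

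The samples were 8 libraries of polyadenylated RNA from brains of the C57BL/6 strain, 4 labelled wild type (WT) and 4 labelled knockout (KO) for Uhrf2. Uhrf2 is a relative of the methylation maintenance factor Uhrf1 and reads hydroxymethylated cytosine, and the series compared expression with and without it. Age, sex and the design of the knockout allele were not stated in the labels. Whether each library came from its own animal is not in the labels, so the p-values measure the spread between these libraries, which may be partly technical.

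Cytosolic ribosomes translate the messages of nuclear genes in the cell body, and in neurons also in dendrites and axons. Mitochondrial ribosomes translate only the few messages of the mitochondrial genome, which encode core subunits of the respiratory chain, while all their own proteins are encoded in the nucleus and imported. Messages of cytosolic ribosomal proteins typically begin with a run of pyrimidines (a terminal oligopyrimidine tract), through which mTOR signalling and the protein LARP1 set their translation together. Messages of mitochondrial ribosomal proteins are in general not governed by such a tract.

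Sequences around annotated start sites were searched for pyrimidine runs and other motifs. A run anywhere in the window counted, so it need not be the first bases of the message. RefSeq promoters (build GRCm38.p6) were matched by symbol for 128 members, 61 cytosolic and 67 mitochondrial, and for 27025 genes in all, taking the most upstream start of each gene. The 4 cytosolic genes below are among those with a long pyrimidine run near the start, Rpl22l1 is the cytosolic member with the lowest p between the groups, and Mrps10, Mrps6, Mrpl43 and Mrpl44 are mitochondrial members whose groups did not overlap. Each window holds 90 bases in the direction of transcription, 60 before the annotated start and 30 from it onward. Capitals mark runs of at least 8 pyrimidines and the 5 motifs whose shares are given after the sequences.
Rpl4 (chr9:64173327-64173416, plus strand): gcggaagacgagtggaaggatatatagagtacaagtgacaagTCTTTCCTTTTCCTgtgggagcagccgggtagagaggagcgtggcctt
Rpl7a (chr2:26910747-26910836, plus strand): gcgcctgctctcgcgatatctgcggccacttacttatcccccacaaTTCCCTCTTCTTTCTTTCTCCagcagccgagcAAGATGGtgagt
Rpl27a (chr7:109519135-109519224, plus strand): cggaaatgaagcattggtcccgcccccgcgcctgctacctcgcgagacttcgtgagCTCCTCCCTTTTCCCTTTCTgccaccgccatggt
Rps10 (chr17:27635215-27635304, minus strand): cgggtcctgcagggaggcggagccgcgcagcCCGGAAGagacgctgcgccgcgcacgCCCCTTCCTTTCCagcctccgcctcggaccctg
Rpl22l1 (chr3:28805448-28805537, plus strand): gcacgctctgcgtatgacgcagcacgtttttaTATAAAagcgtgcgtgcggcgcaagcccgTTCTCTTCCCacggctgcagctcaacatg
Mrps10 (chr17:47369137-47369226, plus strand): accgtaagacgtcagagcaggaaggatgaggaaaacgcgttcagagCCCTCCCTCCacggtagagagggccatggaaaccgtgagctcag
Mrps6 (chr16:92058276-92058365, plus strand): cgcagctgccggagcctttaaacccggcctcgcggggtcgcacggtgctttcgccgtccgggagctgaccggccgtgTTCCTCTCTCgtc
Mrpl43 (chr19:45006413-45006502, minus strand): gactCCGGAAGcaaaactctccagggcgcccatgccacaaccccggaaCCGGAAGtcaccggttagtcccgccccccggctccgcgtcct
Mrpl44 (chr1:79775958-79776047, plus strand): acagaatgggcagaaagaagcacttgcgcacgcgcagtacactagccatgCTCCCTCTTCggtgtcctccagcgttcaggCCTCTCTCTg

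The 4 cytosolic genes listed first were shown for their long run of C and T near the start, so they are no evidence for their set. Mrps10, Mrps6 and Mrpl44 hold such runs too. A run of at least 8 pyrimidines lay in this 90-base window in 34 of 61 cytosolic members (55.7%), 23 of 67 mitochondrial members (34.3%) and 33.3% of all genes. The letters CTTTCC, which can lie inside such a run, were found on the sense strand in 14.8% of cytosolic members, 7.46% of mitochondrial members and 4.19% of all genes. The mitochondrial share of pyrimidine runs was thus near that of all genes, and the cytosolic share was higher, as a description without a test.

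Both sets shared another feature. The letters CCGGAAG, a core of the sites of ETS-family factors such as GABPA, were present on either strand of the 300-base promoter in 24 of 61 cytosolic members (39.3%), 22 of 67 mitochondrial members (32.8%) and 9.14% of all genes. Mrpl43 carries them at 2 places in its window. The letters AAGATGG, a core of the YY1 site whose reverse complement CCATCTT can run into a pyrimidine run, were present in 16.4% of cytosolic members, 19.4% of mitochondrial members and 6.46% of all genes. The letters GCATGCGC, a part of the NRF1 site, were present in 3.28%, 11.9% and 2.8%, in the same order. TATAAA, the TATA box, lay in the 90-base window of 4 cytosolic members (6.56%), 0 mitochondrial members and 3.64% of all genes, and Rpl22l1 and Rplp0 hold one. These matches describe the letters of annotated windows, which may differ from the starts used in brain.

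Library totals ran from 11891350 to 19773921 counts. Beyond counting noise, a typical gene varied by 5.38% (coefficient of variation) between libraries of a group. Uhrf2 checks the labels, and its level went against them. In CPM, which are counts scaled to a common library size, it was 55.4 ± 5.22 in WT-labelled and 88.8 ± 2.23 in KO-labelled samples (SD, n = 4). A deleted part of the gene could not be read apart from the rest, so all directions here rest on the labels, and WT and KO below mean the libraries labelled so. The summed markers of neurons, astrocytes, oligodendrocytes, choroid plexus and red cells had overlapping ranges in the 2 groups. Those of microglia were lower in KO (187 to 197 CPM) than in WT libraries (201 to 220 CPM), and no marker in any of the 10 lists passed the test. The part of cell makeup in the members' differences was not tested. Whole tissue holds many cell types, and fewer cells of a type and less RNA per cell cannot be told apart.

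The summed level of the cytosolic set did not separate the groups. It was 6462, 6789, 6753 and 6553 CPM in WT replicates 1 to 4 and 6659, 6976, 6728 and 6520 CPM in KO replicates 1 to 4. The group means of 6639 ± 157 and 6721 ± 191 CPM (SD, n = 4) differed by 1.01-fold, less than the spread within either group. KO replicate 2 was the highest and WT replicate 1 the lowest library, and the groups overlapped over most of their ranges.

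The mitochondrial set was flatter still. Its sum was 2082, 2105, 2098 and 2099 CPM in WT replicates 1 to 4 and 2114, 2104, 2157 and 2090 CPM in KO replicates 1 to 4. The means were 2096 ± 9.79 and 2116 ± 28.7 CPM (SD, n = 4), again 1.01-fold apart, with overlapping groups. Here the difference was larger than the spread of the WT libraries and smaller than that of the KO libraries. KO replicates 1 and 3 lay above all WT libraries. Across all 8 libraries the highest mitochondrial sum was 1.04 times the lowest, against 1.08 times for the cytosolic sum. In all, the cytosolic members took 0.644 to 0.703% and the mitochondrial members 0.207 to 0.214% of the CPM of tested genes.

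**Figure D1:**
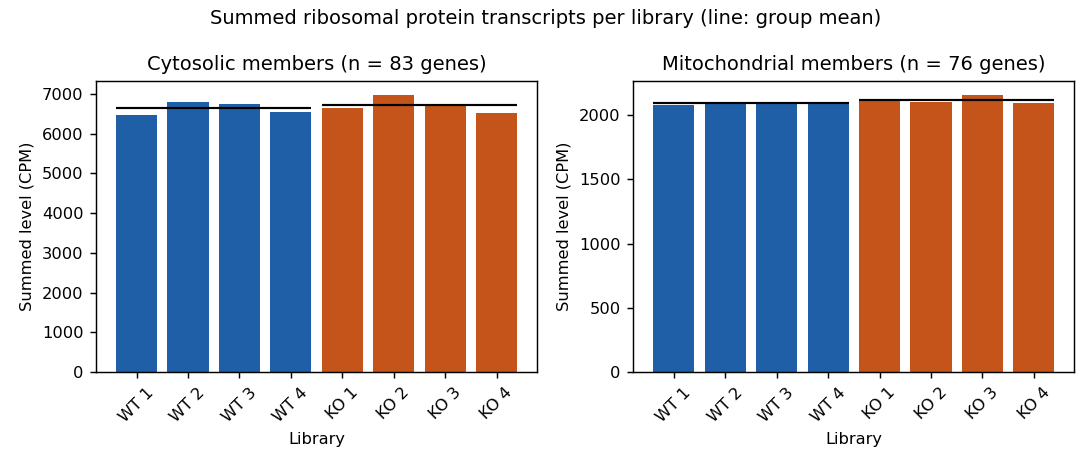
Summed level in CPM (bars, axis from 0) of the 83 cytosolic members (left) and the 76 mitochondrial members (right) in each library, WT in blue and KO in orange, with lines at the group means. The bars of each set are nearly level, from 6462 to 6976 CPM for the cytosolic and from 2082 to 2157 CPM for the mitochondrial set.

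The balance between compartments and between subunits was also similar in the groups. The ratio of the cytosolic to the mitochondrial sum was 3.17 ± 0.0635 in WT and 3.18 ± 0.0941 in KO libraries (SD, n = 4). Within the cytosolic ribosome, the ratio of large to small subunit sums lay between 1.47 and 1.5 in all 8 libraries. Within the mitochondrial ribosome it lay between 1.55 and 1.62. For each of these 3 ratios the groups overlapped.

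Although the sums hardly differed, the cytosolic members moved together from library to library. Each gene's level was set against its own mean over the 8 libraries on the log2 scale. In KO replicate 2, 71 of the 83 cytosolic members lay above their own mean, with a median deviation of 0.07. In WT replicate 4 and in KO replicate 4, 21 of 83 did, with medians of -0.03 in both, and in WT replicate 1, 23 of 83 did, with a median of -0.05. WT replicates 2 and 3 had 60 and 58 members above their mean, and KO replicates 1 and 3 had 36 and 50. Each group therefore held libraries on both sides, so that the shared shift ran across libraries and not between the groups.

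The shift held in both subunits. In KO replicate 2 it took in 39 of 46 large-subunit and 28 of 31 small-subunit members. The mitochondrial members did not follow it, with 34 of 76 above their own mean in KO replicate 2 and a highest count of 50 of 76 in KO replicate 3. Of all tested genes, 49.0 to 49.9% lay above their own mean in each library. KO replicate 2 had 15585100 counts, inside the range of the others, and the highest summed oligodendrocyte markers (6274 CPM against 5513 to 6187 CPM in the others). The part of depth or cell makeup in this shift was not tested.

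**Figure D2:**
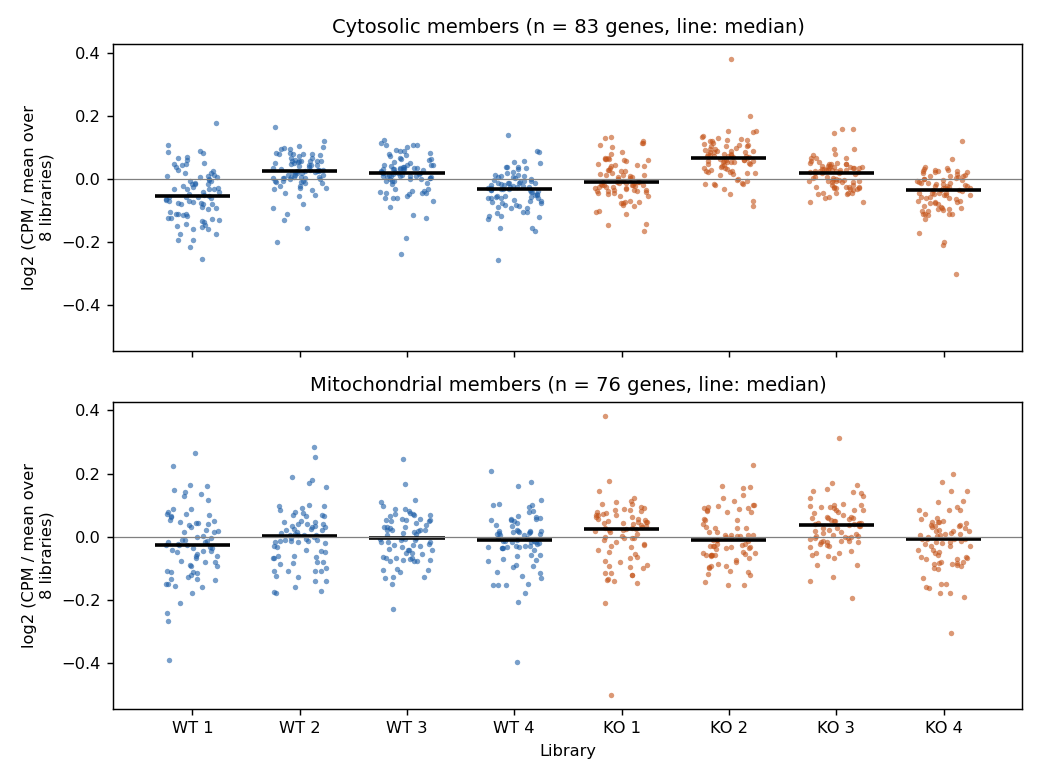
Deviation of each member from its own mean over the 8 libraries (log2 scale), per library, for the 83 cytosolic (top) and 76 mitochondrial members (bottom), with points for genes and black lines for medians. The cytosolic cloud sits highest in KO replicate 2 (median 0.07) and lowest in WT replicate 1 (median -0.05), and the mitochondrial medians stay within 0.04 of 0.

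Gene by gene, no ribosomal protein passed the test between KO and WT. All 159 members passed the filter on low counts, and none was under 1 CPM in any library. With p-values from edgeR's quasi-likelihood test, adjusted over all tested genes by the Benjamini-Hochberg method, 0 of 159 were called at 0.05. The call rate over the 15902 tested genes was 1.43%, with 1.14% higher (182) and 0.289% lower (46) in KO. DESeq2 and limma-voom also called 0 members. At an unadjusted p under 0.05 there were 1 of 83 cytosolic members (1.2%) and 7 of 76 mitochondrial members (9.21%), beside 12.6% of all tested genes. The mitochondrial 7 were 5 higher (6.58%, background 6.45%) and 2 lower (2.63%, background 6.16%). Of the 29 mitochondrial small-subunit members, 5 had such a p (17.2%), 4 higher (13.8%) and 1 lower (3.45%). In either direction the shares of both whole sets were below the background, and that of the mitochondrial small subunit was above it, as a description without a test.

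The fold changes were narrow and their intervals bound them closely. The median log2 fold change was 0.02 for the cytosolic and 0.02 for the mitochondrial members, beside -0.01 for all tested genes. Its standard deviation over genes was 0.05 for the cytosolic, 0.08 for the mitochondrial and 0.16 for all genes. The estimates of members were also more exact, with a median SE of 0.051, 0.065 and 0.074 in the same order. The sets were not compared with genes of like level, so the part of level in this narrowness was not tested. The sign was positive in 56 of 83 cytosolic (67.5%) and 48 of 76 mitochondrial members (63.2%), beside 48% of all tested genes. Members of a set share their libraries, so this count of signs is a description. With 1 library left out, the cytosolic median ran from 0.000045 (without KO replicate 2) to 0.03 (without KO replicate 4), and was also 0.0089 without WT replicate 1, 0.0086 without WT replicate 4 and 0.03 without WT replicate 2. The log2 ratio of the cytosolic sums, 0.02 with all libraries, ran from -0.00086 (without KO replicate 2) to 0.03 (without KO replicate 4), and was 0.0048 without WT replicate 1, 0.01 without WT replicate 4 and 0.03 without WT replicate 2. The mitochondrial median was 0.007 without KO replicate 1, and the log2 ratio of the mitochondrial sums was 0.0047 without KO replicate 3, in place of 0.01.

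For 80 of 83 cytosolic and 65 of 76 mitochondrial members, the whole 95% interval of the fold change lay within 1.2-fold in either direction, as it did for 54.9% of all tested genes. Every small-subunit member of the cytosolic ribosome was among them. The 14 members whose interval reached further were Rpl29, Rpl22l1 and Rps4y2 among the cytosolic, Mrpl14, Mrpl23 and Mrpl33 in the mitochondrial large subunit, and Mrps6, Mrps10, Mrps11, Mrps26, Mrps28, Mrps34, Mrps35 and Mrps36 in the mitochondrial small subunit. Only Mrpl23 and Mrps36, both at low counts, had an estimate past 1.2-fold (1.26% of members), beside 8.24% of all tested genes. Smaller changes lie inside most of these intervals, and the shares over all tested genes were not matched for level.

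**Figure D3:**
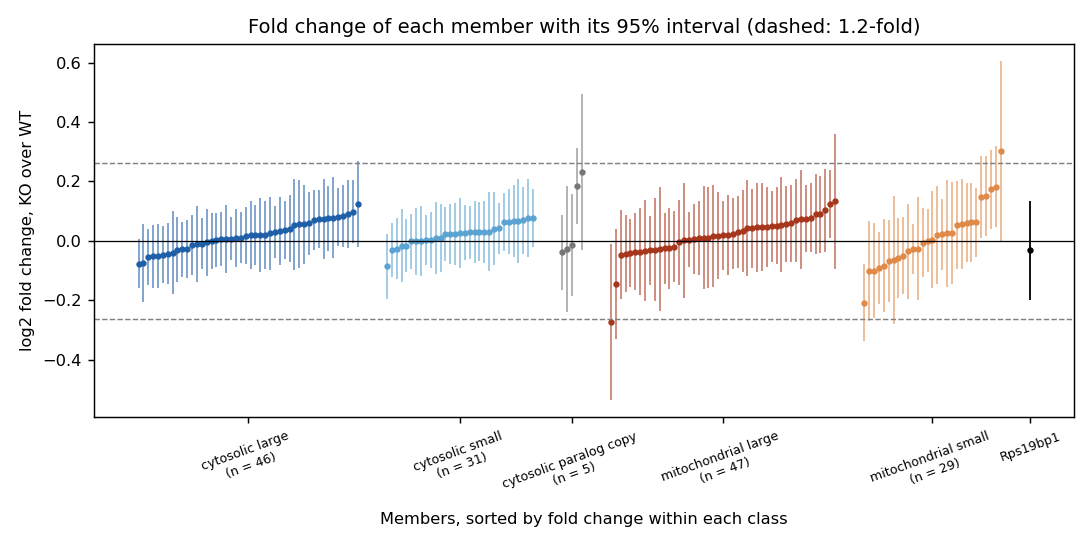
Log2 fold change of KO over WT for each member (points) with its 95% interval from the quasi-likelihood fit (lines), sorted within each class, with dashed lines at 1.2-fold. All points but those of Mrpl23 and Mrps36 lie between the dashed lines, and 145 of the 159 intervals do too.

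In the cytosolic large subunit, 46 members had a median log2 fold change of 0.02. Rpl3, which reaches into the peptidyl transferase centre, had 147, 151, 149 and 149 CPM in WT and 138, 144, 145 and 138 CPM in KO replicates 1 to 4. All 4 KO libraries lay below all 4 WT libraries, by a small margin, with a log2 fold change of -0.08 (SE 0.04, adjusted p = 0.433, edgeR). Groups that do not overlap were found in 2 of 83 cytosolic members (2.41%), Rpl3 and Rpl22l1, beside 7.67% of all tested genes. Rpl14 measured 71.1 ± 3.87 CPM in WT and 76.1 ± 3.47 CPM in the KO libraries (SD, n = 4), and Rpl29, a protein of the ribosome surface, 26.3 ± 1.95 and 28.7 ± 2.07 CPM. Their log2 values were 0.10 (adjusted p = 0.444) and 0.12 (adjusted p = 0.488), the latter being the highest estimate of the subunit, and in both genes the groups overlapped.

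Rpl4, the member with the highest CPM, was level between the groups. It had 462, 477, 469 and 461 CPM in WT and 466, 486, 465 and 461 CPM in the KO libraries, in replicate order. The groups overlapped fully, with a log2 fold change of 0.01 (95% interval -0.07 to 0.08). Rplp0, Rplp1 and Rplp2 form the stalk, which recruits translation factors to the ribosome. Rplp0 had 79.1 ± 3.61 CPM in WT and 83.2 ± 3.23 CPM in the KO libraries (SD, n = 4), and Rplp1 had 166 ± 4.92 and 168 ± 5.34 CPM. Rplp2 is a member too, but was not among those chosen to be named and was added after its values were seen. It had 57.3 ± 1.98 and 60.7 ± 2.88 CPM. The log2 fold changes were 0.07, 0.01 and 0.08 in this order, the groups overlapped in each, and none passed the test (adjusted p = 0.587, 0.959 and 0.519, edgeR).

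Rpl5 and Rpl11 form a particle with 5S ribosomal RNA that, when free of the ribosome, binds MDM2 and stabilises p53. Rpl5 had 64.1 ± 0.895 CPM in WT and 62.8 ± 2.42 CPM in the KO libraries (SD, n = 4). Rpl11 had 58.5 ± 5.64 and 57.2 ± 3.82 CPM. Their intervals of log2 fold change were -0.12 to 0.07 and -0.18 to 0.10, and the groups overlapped in both genes. The Rpl11 difference was smaller than the SD of either group. For Rpl5 the difference was larger than the SD of the WT libraries and smaller than that of the KO libraries. Rpl10, a late-joining subunit protein on the X chromosome with human variants linked to neurodevelopmental disorders, had 70.7 ± 2.27 and 68.4 ± 1.75 CPM, with an interval of -0.14 to 0.05.

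The 31 small-subunit members of the cytosolic ribosome had a median log2 fold change of 0.03, and 0 of them had groups without overlap. The lowest p of the subunit was that of Rps7, which had 76.7, 72.6, 76.4 and 72.7 CPM in WT and 81.1, 81.9, 77.5 and 74.4 CPM in the KO libraries (log2 fold change 0.08, SE 0.05, adjusted p = 0.523). Only KO replicate 4 fell inside the WT range. Rps24, mutated like Rps19 and Rps7 in some families with Diamond-Blackfan anaemia, had the lowest estimate, with 54.2 ± 1.97 CPM in WT and 50.9 ± 2.51 CPM in the KO libraries (SD, n = 4), a log2 fold change of -0.09 (adjusted p = 0.53). Rps19 itself had 50.9 ± 4.46 and 53.5 ± 4.50 CPM. The direction was not shared by these 3 genes, and none passed the test.

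Rps6, whose phosphorylation by S6 kinases is a common marker of mTOR signalling and of recently active neurons, was level in these counts. It had 69.9, 66.1, 67.8 and 63.4 CPM in WT and 68.3, 70.4, 68.4 and 65.4 CPM in the KO libraries. The groups overlapped, and the interval of its log2 fold change was -0.07 to 0.13. The count gives the message, not the phosphorylated protein. Rps23, a decoding-centre protein, had an interval of -0.11 to 0.13, and Rpsa, also known as the laminin receptor, one of -0.06 to 0.12.

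Of the 5 paralog copies, 1 had groups without overlap. This copy, Rpl22l1, encodes a close relative of RPL22, a protein known to hold down the level of the Rpl22l1 message. Rpl22l1 (chromosome 3, 28805436 to 28807424 on GRCm38) had 24.6, 27.5, 25.3 and 25.1 CPM in WT and 29.8, 29.6, 27.5 and 29.8 CPM in the KO libraries. All KO libraries lay above all WT libraries, but WT replicate 2 and KO replicate 3 were both close to 27.5 CPM. The log2 fold change was 0.18 (SE 0.06, 95% interval 0.06 to 0.31), and its adjusted p of 0.178 (edgeR) missed the threshold.

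Rpl22 stood at 92.9 ± 2.33 CPM in WT and 91.0 ± 3.39 CPM in the KO libraries (SD, n = 4), with a log2 fold change of -0.03 (interval -0.12 to 0.06). As a share of the counts of both genes, Rpl22l1 made up 21.6 ± 0.459% in WT and 24.3 ± 1.24% in KO libraries (SD, n = 4). The WT libraries ran from 21.3 to 22.3% and the KO libraries from 22.7 to 25.4%, so the shares did not overlap. This share follows from the level of Rpl22l1 already described and is no further evidence. An antisense gene overlaps Rpl22l1, and since no source states the strand setting of the counting, their reads cannot be told apart.

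The other 4 copies had overlapping groups. Rps4y2, an autosomal copy of Rps4x that GENCODE M21 lists as the transcribed processed pseudogene Rps4l, had 10.9 ± 1.28 CPM in WT and 12.8 ± 2.39 CPM in the KO libraries (SD, n = 4), the highest log2 fold change of all cytosolic members at 0.23 (SE 0.12, adjusted p = 0.468). Its parent Rps4x stood at 105 ± 4.46 and 105 ± 3.50 CPM. Rpl36al made up 22.9 to 27.2% of itself and Rpl36a, Rpl7l1 27.7 to 31.7% of itself and Rpl7, and Rps27l 19.0 to 22.3% of itself and Rps27. Reads shared between a copy and its parent could be assigned to either, which makes these shares uncertain.

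Among mitochondrial members, 6 of 76 had groups without overlap (7.89%), 5 higher and 1 lower in KO, beside 7.67% of all tested genes (4.28% higher and 3.4% lower), so the number for the whole set was near that of the background. The 29 small-subunit members held 4 of the 6 (13.8%), 3 higher (10.3%) and 1 lower (3.45%), shares that were not tested against the background. Their median log2 fold change was 0.00, beside 0.02 for the 47 large-subunit members. Mrps10, a small-subunit head protein on chromosome 17 (47368887 to 47381417 on GRCm38), had 31.8, 29.8, 29.7 and 33.6 CPM in WT and 26.8, 28.4, 26.4 and 26.2 CPM in the KO libraries. The KO libraries were all lower, with WT replicate 3 and KO replicate 2 closest to each other. The log2 fold change was -0.21 (SE 0.06, interval -0.34 to -0.08). Its adjusted p of 0.118 (edgeR) was the lowest of all 159 members and missed the threshold.

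Mrps34, needed for assembly of the small subunit and mutated in some patients with Leigh syndrome, leaned the other way. It had 26.2, 28.0, 26.9 and 25.1 CPM in WT and 30.1, 33.2, 28.1 and 29.2 CPM in the KO libraries (log2 fold change 0.18, SE 0.06, adjusted p = 0.225, edgeR). WT replicate 2 and KO replicate 3 almost met. Mrps34 overlaps Nme3 and Mapk8ip3, and 7 of its 8 deposited values were fractions. Mrps6 had 22.3, 20.4, 21.9 and 21.8 CPM in WT and 24.4, 23.4, 23.8 and 25.9 CPM in the KO libraries (log2 fold change 0.17, SE 0.06, adjusted p = 0.234), with the KO libraries all higher. Mrps6 contains Slc5a3, a myo-inositol transporter gene, on the same strand, and all 8 of its values were fractions. The part of these neighbours in either level was not tested.

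Mrps11, named after its values were seen, had 17.5, 18.5, 18.4 and 17.5 CPM in WT and 19.5, 19.7, 20.8 and 19.6 CPM in the KO libraries, again without overlap (log2 fold change 0.15, SE 0.07, adjusted p = 0.358, edgeR). It overlaps the member Mrpl46 on the opposite strand. Mrps26 had 47.8 ± 4.69 CPM in WT and 53.3 ± 2.67 CPM in the KO libraries (SD, n = 4), with overlapping groups and a log2 fold change of 0.15 (adjusted p = 0.323). The members of this subunit thus lay on both sides of 0, from Mrps10 to Mrps36. Mrps36 had the highest estimate of all 159 members, 0.30 (SE 0.14, adjusted p = 0.398), at a low level of 4.19 ± 0.428 CPM in WT and 5.18 ± 0.938 CPM in the KO libraries. Its protein is now known as a subunit of the 2-oxoglutarate dehydrogenase complex, although the gene keeps its ribosomal name.

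In the mitochondrial large subunit, Mrpl43 had 29.9, 31.4, 29.1 and 29.4 CPM in WT and 32.5, 33.1, 32.7 and 32.1 CPM in the KO libraries. All KO libraries were higher (log2 fold change 0.12, SE 0.05, adjusted p = 0.358, edgeR). Mrpl43 shares its locus with Twnk, the mitochondrial DNA helicase, on the opposite strand. Mrpl44, a protein with an RNase III-like fold whose variants cause cardiomyopathy, had 20.1 ± 0.910 CPM in WT and 21.6 ± 1.004 CPM in the KO libraries (SD, n = 4), with no overlap and a log2 fold change of 0.10 (SE 0.07, adjusted p = 0.565). The largest fall was that of Mrpl23, which had 8.998, 9.13, 8.09 and 6.73 CPM in WT and 5.29, 7.01, 7.35 and 7.35 CPM in the KO libraries. WT replicate 4 lay inside the KO range. Its log2 fold change of -0.27 had an SE of 0.13 and an adjusted p of 0.372.

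Mrpl12, which also binds the mitochondrial RNA polymerase, and Mrps16, a small-subunit disease gene, were level. Mrpl12 had 36.9 ± 0.509 CPM in WT and 37.4 ± 2.06 CPM in the KO libraries (SD, n = 4), and Mrps16 had 14.8 ± 1.03 and 15.1 ± 1.154 CPM. Neither differed by more than its spread.

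**Figure D4:**
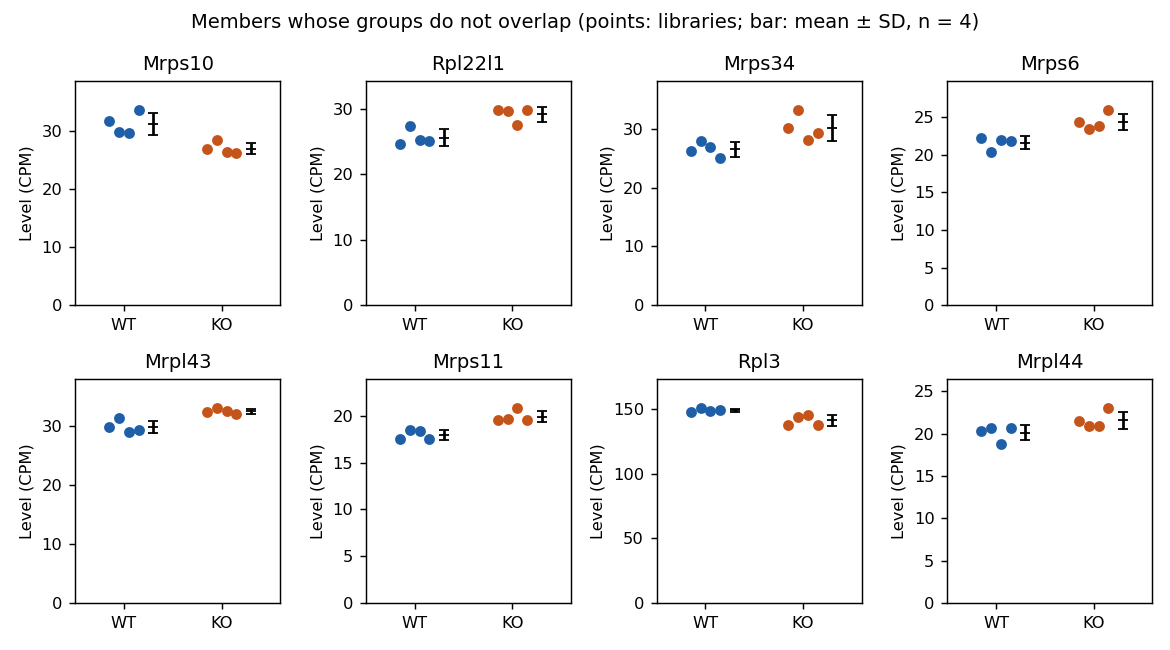
Level in CPM (axis from 0) of the 8 members whose WT (blue) and KO (orange) libraries did not overlap, with a point per library and bars for mean ± SD (n = 4). Mrps10 and Rpl3 were lower and the other 6 higher in KO libraries, and the gaps between the groups were small beside the levels.

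Levels within the ribosomes were compared per length of transcript, using the shortest principal transcript of each gene in GENCODE M21 and leaving out Rpl24 and Mrpl33. Per kilobase, the cytosolic members had a median of 88.5 CPM in the large and 105 CPM in the small subunit. The mitochondrial medians were 20.3 CPM in the large and 17.6 CPM in the small subunit, and the paralog copies had 28.8 CPM. The proteins of 1 ribosome are needed in nearly equal number, yet the levels within a subunit spread over about an order of magnitude: from 31.0 (Rpl5) to 335 (Rplp1) CPM per kilobase in the cytosolic large, from 30.5 (Rps20) to 406 (Rps21) in the cytosolic small, from 4.06 (Mrpl17) to 51.1 (Mrpl30) in the mitochondrial large and from 3.59 (Mrps35) to 51.4 (Mrps21) in the mitochondrial small subunit.

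At the top per kilobase stood Rplp1, Rpl4 and Rpl8 in the cytosolic large subunit and Rps21, Rps15 and Rps9 in the small. Rpl8 measured 232 ± 13.0 CPM in WT and 245 ± 11.5 CPM in the KO libraries (SD, n = 4), and Rps21 measured 159 ± 9.48 and 161 ± 7.30 CPM. In the mitochondrial set the leaders were Mrpl30, Mrpl20 and Mrpl42 among genes named for the large subunit. Among those named for the small subunit they were Mrps21, Mrps17 and Mrps18a. These orders depend on the annotated length. Rps20, the lowest of its subunit on a transcript of 3706 bases, reached 317 CPM per kilobase of coding sequence, the third highest. On the coding scale Rpl41, picked out after its value was seen, was the highest member at 1427 CPM per kilobase, with a coding sequence of only 75 bases.

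**Figure D5:**
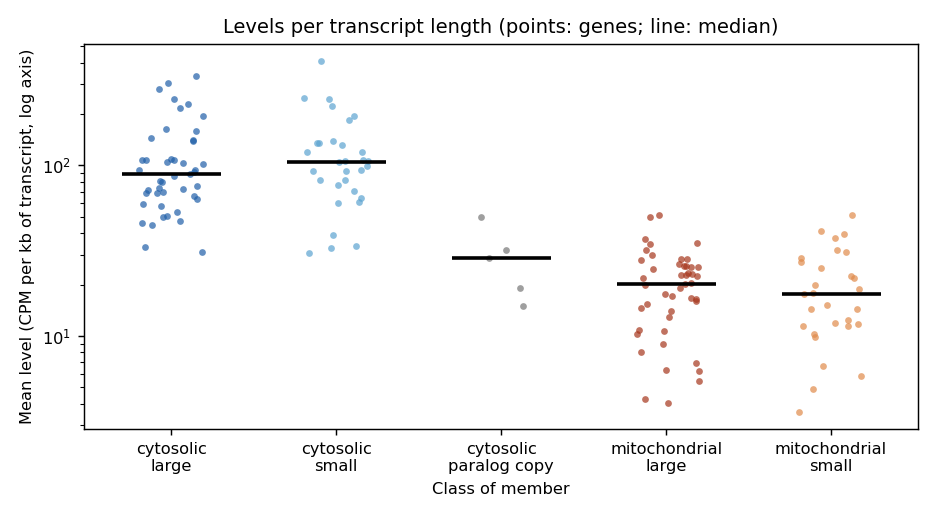
Mean level over the 8 libraries in CPM per kilobase of transcript (log axis) for each class, with points for genes and lines for medians. The cytosolic medians (88.5 and 105 CPM per kilobase) stand above the mitochondrial medians (20.3 and 17.6), and the points of each class spread over about an order of magnitude.

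Gene copies may bear on the cytosolic levels, which was not tested. GENCODE M21 names 298 pseudogenes after 60 of the 83 cytosolic members, against 5 after 3 mitochondrial members, and no source states how reads matching several copies were treated. Of the cytosolic members, 35 overlap another gene on the same strand, many of them through small nucleolar RNA genes in their introns, and 25 overlap one on the opposite strand. Of the 75 mitochondrial members found in the annotation, 12 and 34 do. Fractions made up 11.6% of the cytosolic, 10.5% of the mitochondrial and 8.53% of all deposited values.

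The row named Rpl24 needs care. Its identifier (ENSMUSG00000022601) is that of Zbtb11 in GENCODE M21, and all its values were fractions. The row was kept in the sums, medians and counts of the cytosolic set and left out of the levels per kilobase and the promoters. It measured 64.8 ± 7.03 CPM in WT and 66.9 ± 4.91 CPM in the KO libraries (SD, n = 4). A separate row spelled RPL24, which the case-sensitive rule does not take, measured 54.9 ± 2.52 and 55.4 ± 6.70 CPM. Neither row moved between the groups beyond its spread, with log2 fold changes of 0.05 (SE 0.07) and 0.01 (SE 0.07).

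Partner genes of the ribosome were read in 5 lists beside the members. Of 10 ribosomal proteins with other names, 0 passed the test by edgeR and 0 had an unadjusted p under 0.05. In that list Gnb2l1, which encodes the small-subunit scaffold RACK1, had 173 ± 2.67 CPM in WT and 178 ± 3.11 CPM in the KO libraries (SD, n = 4). Its groups overlapped. Ict1, a peptidyl-tRNA hydrolase built into the mitochondrial large subunit, had 39.3 ± 0.851 and 37.1 ± 1.07 CPM, with the KO libraries all lower (adjusted p = 0.566). Of 93 factors of cytosolic ribosome assembly, 0 passed, 4 had an unadjusted p under 0.05 (4.3%, background 12.6%), and the median log2 fold change was 0.02. Rrp12, an export and processing factor of pre-ribosomes, had 40.5 ± 3.19 and 47.5 ± 2.86 CPM (adjusted p = 0.0839, edgeR), with overlapping groups. Mdn1, the large AAA ATPase of large-subunit maturation, had 104 ± 4.198 and 94.7 ± 2.96 CPM (adjusted p = 0.181, edgeR), with the KO libraries all lower.

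In the RNA polymerase I list 1 of 17 genes passed the test (5.88%, background 1.43%). Ubtf encodes the upstream binding factor that opens ribosomal DNA for transcription. It had 149, 158, 160.2 and 164 CPM in WT and 177, 199, 186 and 184 CPM in the KO libraries, so that every KO library was above every WT library. Ubtf rose with a log2 fold change of 0.24 (SE 0.05, adjusted p = 0.0075, edgeR). This call was read in the main fit only and was not followed under the alternatives described at the end. The other 16 of 17 tested genes of the list did not pass, 2 of the 17 had an unadjusted p under 0.05 (11.8%, background 12.6%), and the list's median was 0.05. Ribosomal RNA itself carries no poly(A) tail and was not measured here.

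Of 51 cytosolic translation factors, 0 passed the test by edgeR, 6 had an unadjusted p under 0.05 (11.8%, background 12.6%), and the median log2 fold change was 0.02. Tpt1, an abundant message with its own pyrimidine tract, had 199 ± 2.78 CPM in WT and 220.1 ± 7.26 CPM in the KO libraries (SD, n = 4), without overlap (log2 fold change 0.14, SE 0.04, adjusted p = 0.0864). Eif3g, a subunit of initiation factor eIF3, had 53.5 ± 2.51 and 58.7 ± 0.508 CPM (adjusted p = 0.234, edgeR), with the KO libraries all higher. Of 44 genes of mitochondrial translation and ribosome assembly, 0 passed, 4 had an unadjusted p under 0.05 (9.09%, background 12.6%), and the median was -0.00. In 7 of the 44 the groups did not overlap (15.9%, background 7.67%), a share that was not tested. The same share was 10% for the ribosomal proteins with other names and 5.38% for the cytosolic assembly factors. It was 11.8% for the RNA polymerase I list and 9.8% for the cytosolic translation factors. Mterfd1, a factor of mitochondrial ribosome assembly, had 30.7 ± 0.483 and 27.6 ± 1.76 CPM (adjusted p = 0.276, edgeR). Cars2, the mitochondrial cysteinyl-tRNA synthetase, had 11.6 ± 0.787 and 10.1 ± 0.618 CPM (adjusted p = 0.352, edgeR). In both genes the KO libraries were all lower.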

How the data were processed

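Polyadenylated RNA of 8 mouse brain libraries was made into stranded libraries, per the labels' protocols. The table as deposited holds expected counts of reads per gene, unscaled. Per the submitters' processing notes, TopHat2 2.0.9, edgeR and GRCm38 (mm10) were used, and the counting program is not given in the sources used here. Counts were rounded to whole numbers and filtered with filterByExpr, which left 15902 genes, and scaled by TMM. KO was compared with WT by edgeR 4.0.16 (R 4.3.3), a robust quasi-likelihood fit on group alone, with Benjamini-Hochberg adjusted p-values over the 15902 genes and a threshold of 0.05. Intervals are 95% intervals of the fitted coefficient, and CPM values use the TMM-scaled library sizes. The fit was also run on simulated counts, drawn independently for each library and without shared shifts, and no result here rests on that run. Library pairs within a group differed by more than counting noise (chi-square per degree of freedom 2.43 to 4.91). These values do not tell whether the libraries came from separate animals, and all 8 were kept.

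Members and lists were chosen with earlier results of these data known. Members named were those past the threshold, the 4 with the lowest p and the largest rise and fall of each subunit, the 3 highest and lowest per kilobase, all paralog copies with their parents, and 12 with known roles, with up to 4 genes past the threshold or else the 2 of lowest p from each list of partner genes. Positions, lengths and overlaps come from GENCODE M21, which holds 158 of the 159 identifiers (all but that of Mrpl33), and promoters from RefSeq. Alternatives were other scalings, filters and tools (DESeq2 1.42.0, limma 3.58.1), removal of GC and length trends, the replicate number as a term, and leaving out libraries.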

Additional observations from a re-analysis of the deposited data

Results flagged for a closer look

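In 128 groups of 4 libraries, 1 library was checked for standing apart from the other 3 by the gap to its nearest neighbour, and 11 groups held such a library, where chance flags about 1 in 20. The ratio of the cytosolic to the mitochondrial sum was 3.32 in KO replicate 2, against 3.12 to 3.15 in the other KO libraries. In the same library Rps20 stood at 118 CPM (others 109 to 110.1) and Rps4x at 110.4 CPM (others 103 to 104). In KO replicate 3, Rpl22l1 was at 27.5 CPM (others 29.6 to 29.8), Rpl5 at 66.4 CPM (others 61.3 to 62.0) and Mrps17 at 36.5 CPM (others 32.3 to 32.9). Mrpl23 was at 5.29 CPM in KO replicate 1 (others 7.01 to 7.35), and Rpl11 was at 51.4 CPM in KO replicate 4 (others 59.0 to 59.1). Among WT libraries, Mrps21 was at 24.7 CPM in replicate 3 (others 20.1 to 20.7), Rplp1 at 174 CPM in replicate 2 (others 163 to 165) and Rps27 at 34.6 CPM in replicate 4 (others 37.01 to 37.4).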

How the results depend on the processing

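No member was called under any of the 17 alternatives, so the count of 0 held in both sets. The 59 named members gave 1003 results under the alternatives, all 1003 on the same side of the threshold and 947 with the same sign. The sign changed in 22 of these genes, at absolute log2 fold changes of at most 0.07. The lowest adjusted p of any named member was 0.0733 (Mrps10, GC content and length trends removed; 0.0733 to 0.302 over its alternatives), and Rpl22l1 ranged from 0.0985 to 0.416. The counts over all genes, used only as background, moved more. With the replicate number as a block, 347 genes were higher and 148 lower in place of 182 and 46. The labels do not say whether the numbers pair libraries, so the main fit did not take them as pairs. In their deviations from the group means, same-numbered libraries correlated at 0.208, 0.0772, 0.0245 and 0.0673. WT replicates 1, 2 and 4 correlated best with the KO library of the same number, and WT replicate 3 with KO replicate 2 (0.11). These values do not settle whether the libraries are paired. Leaving out 1 library gave 96 (without WT replicate 3) to 247 (without KO replicate 2) higher and 14 (without WT replicate 3) to 77 (without KO replicate 2) lower genes. The lower count was also 27 without KO replicate 1, 15 without KO replicate 3, 25 without KO replicate 4 and 28 without WT replicate 2, and the higher count 115 without KO replicate 3 and 121 without KO replicate 4. Without both libraries numbered 1, an alternative added after seeing the data, 18 genes were lower. The cause was not tested, beyond the smaller number of samples. The depth allowed every member to be read at over 1 CPM, but differences well under 1.2-fold were not detectable for most.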
